A study of Mus musculus with 16 samples.

Results

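Malat1 and Neat1, a pair of long noncoding RNAs that stay in the nucleus, are 2 of the 32286 genes counted in each of the 16 single-cell RNA libraries. They were picked by symbol because Malat1 was higher in marrow progenitors of mice given IACS-70654, so their values in that contrast are given as a description, with no test. IACS-70654 inhibits the bromodomain of CBP and P300, the histone acetyltransferases encoded by Crebbp and Ep300. The libraries came from 2208L tumors, a Trp53-null mammary tumor model of TNBC carried by female BALB/c mice, and from bone marrow (BM). Of the 4 tumor libraries, 1 comes from each treatment (vehicle, IACS-70654, an anti–PD-1 antibody, and the combination of both agents). The BM libraries are 2 per group from tumor-free WT mice, labelled as controls, and from mice with a 2208L tumor that received either vehicle or the inhibitor, with 6 libraries from CD45+ Ter119- cells and 6 from lineage-negative (Lin-) c-Kit+ cells.

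IACS-70654 and its vehicle followed a 3-on/2-off schedule, of 7 days according to the series record. The results and figure legends of the study give a slightly shorter course for the BM mice. For the anti–PD-1 antibody the methods give an injection every 3 days. The WT mice had neither tumor nor dosing, so both differ together between vehicle and WT. The methods of the study speak of 3 mice pooled per sample and the series record of 3 mice pooled per treatment group, which would make the pair of BM libraries in a group shares of a single pool. Which of the 2 holds is not stated, so p-values measure the spread between these libraries, which may be technical.

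Malat1 is an abundant component of nuclear speckles, the bodies where splicing factors gather, and has been studied as a regulator of splicing and of metastasis. Neat1 is the RNA scaffold of paraspeckles, bodies that it builds with proteins such as Nono, Sfpq and Pspc1. Neither RNA has the usual end throughout: RNase P cuts Malat1 and the long form of Neat1 just upstream of a tRNA-like RNA, leaving a genome-encoded A-rich end that folds into a triple helix, while the short form of Neat1 ends in a poly(A) tail. Because the method reads the 3′ ends of RNAs primed on runs of A, the sequence around those ends decides what can be counted.

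In the mm10/GRCm38 build, Malat1 (ENSMUSG00000092341) lies at chr19:5795690-5802672 and Neat1 (ENSMUSG00000092274) at chr19:5824708-5845478, both on the minus strand and both noncoding. The main Malat1 transcript, Malat1-201, is a single exon of 6983 bases. The long Neat1 transcript, Neat1-201, is a single exon of 20771 bases, and the short Neat1-202 has 3004 bases in 2 exons at the 5′ side of the same gene. The following stretches, read 5′ to 3′ along each transcript from GENCODE vM21 coordinates in mm10/GRCm38, are shown because they are the ends and A runs that a 3′ count can start from. Capitals mark the run of A with the GCAAAA end in the A tract, the U-rich motif, the AATAAA signal in the last bases of Malat1-201 and Neat1-202, and the GCAAAA end in those of Neat1-201.

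Malat1, A tract (chr19:5795971-5796019): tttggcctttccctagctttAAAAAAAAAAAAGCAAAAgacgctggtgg

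Malat1, U-rich motif (chr19:5796043-5796082): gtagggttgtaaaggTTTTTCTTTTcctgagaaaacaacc

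Malat1-201, last bases (chr19:5795690-5795729): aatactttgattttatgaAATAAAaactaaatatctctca

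Neat1-201, last bases (chr19:5824708-5824747): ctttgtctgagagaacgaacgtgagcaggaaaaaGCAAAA

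Neat1-202, last bases (chr19:5842307-5842346): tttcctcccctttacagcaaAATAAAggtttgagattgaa

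The run of 12 A is the longest in Malat1-201, begins at its base 6674 and ends 298 bases before the annotated end, so the annotated transcript runs past the A-rich end. Neat1-201 had no run of A longer than 7. Counts per gene do not separate the 2 forms of Neat1, and which A run gave the counts was not tested. An antisense transcript, Gm37376, overlaps Malat1. Levels of the 2 genes are therefore not compared with each other.

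Of 77636 cell barcodes, 73176 were kept (1974 to 7517 per library), with a median of 4113 to 9512 unique molecular identifiers (UMIs) per cell in a library, and libraries of the same sort shared 0 barcodes. Clusters of cells, made without Malat1, Neat1 or the gene lists used below, were called X-like from marker lists, such as "monocyte-like". The suffix is left out from here on. Ptprc, which encodes CD45, was at 799 to 946 CPM (UMIs of the gene, scaled to a common total of 1e6 UMIs) in CD45+ libraries, and Kit at 99.6 to 154 CPM in Lin- c-Kit+ libraries against 6.74 to 19.4 CPM in CD45+ libraries. Plasma cells of the Lin- c-Kit+ sort, a type that the gate should remove, had 14.2 to 87.8 CPM of Kit. Tumor cells had 1459 to 1692 CPM of Epcam, an epithelial gene, and macrophages 12.8 to 17.8 CPM. Levels below are CPM of a class, the sum over its cells in a library. A higher CPM can come from more of the RNA per cell or from less of all other RNA, and UMIs per cell are therefore given beside the CPM in many of the classes.

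In Lin- c-Kit+ cells, the fraction that holds hematopoietic stem and progenitor cells (HSPCs), Malat1 was higher with IACS-70654 than with vehicle in each of 13 classes with no overlap of the libraries, as did 31.6% of all class-by-gene tests of the sort. This is the contrast that chose the gene, and the fold changes run from 1.18 on the log2 scale in megakaryocyte cells to 0.27 in erythroid cells, neutrophil precursors and plasma cells. In the same contrast, 4.56% of all class-by-gene tests passed the rule used for calls here, which asks for an adjusted p under 0.01 together with a log2 change of at least 0.5 either way. Megakaryocyte cells, which make platelets, had 14580 and 15472 CPM with IACS-70654, 6313 and 6333 CPM with vehicle and 6500 and 6448 CPM in WT. Lymphoid-primed progenitors, which carry Dntt and Il7r, had 13310 and 14642 CPM with IACS-70654, 6540 and 7032 CPM with vehicle and 6447 and 6741 CPM in WT. In both, the vehicle and WT libraries lay close together, and the 2 IACS-70654 libraries were about level with each other and far above them.

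Hematopoietic stem cells, marked by Procr, Hlf and Mecom, had 17889 and 17997 CPM with IACS-70654, 10864 and 11260 CPM with vehicle and 11469 and 10826 CPM in WT, a log2 change of 0.68 between IACS-70654 and vehicle. Stem or multipotent cells, a cluster with both stem and multipotent markers, had 14303 and 14506 CPM with IACS-70654, 7680 and 8039 CPM with vehicle and 8552 and 8423 CPM in WT, a change of 0.81. Multipotent progenitors (MPPs), marked by Flt3 and Cd34, had 8824 and 8689 CPM with IACS-70654, 5164 and 5167 CPM with vehicle and 5891 and 5918 CPM in WT, a change of 0.76. In all 3 of these classes the IACS-70654 libraries lay above both other groups, by far more than the libraries of a pair differed, while vehicle and WT overlapped in hematopoietic stem cells. MPPs consisted of 2 clusters, numbers 2 and 5 in the clustering, whose shares differed between groups, and the difference was present inside each. In cluster 2 the IACS-70654 libraries had 6798 and 6734 CPM against 3915 and 3783 CPM with vehicle, and in cluster 5 they had 10695 and 10565 CPM against 5575 and 5869 CPM.

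**Figure D1:**
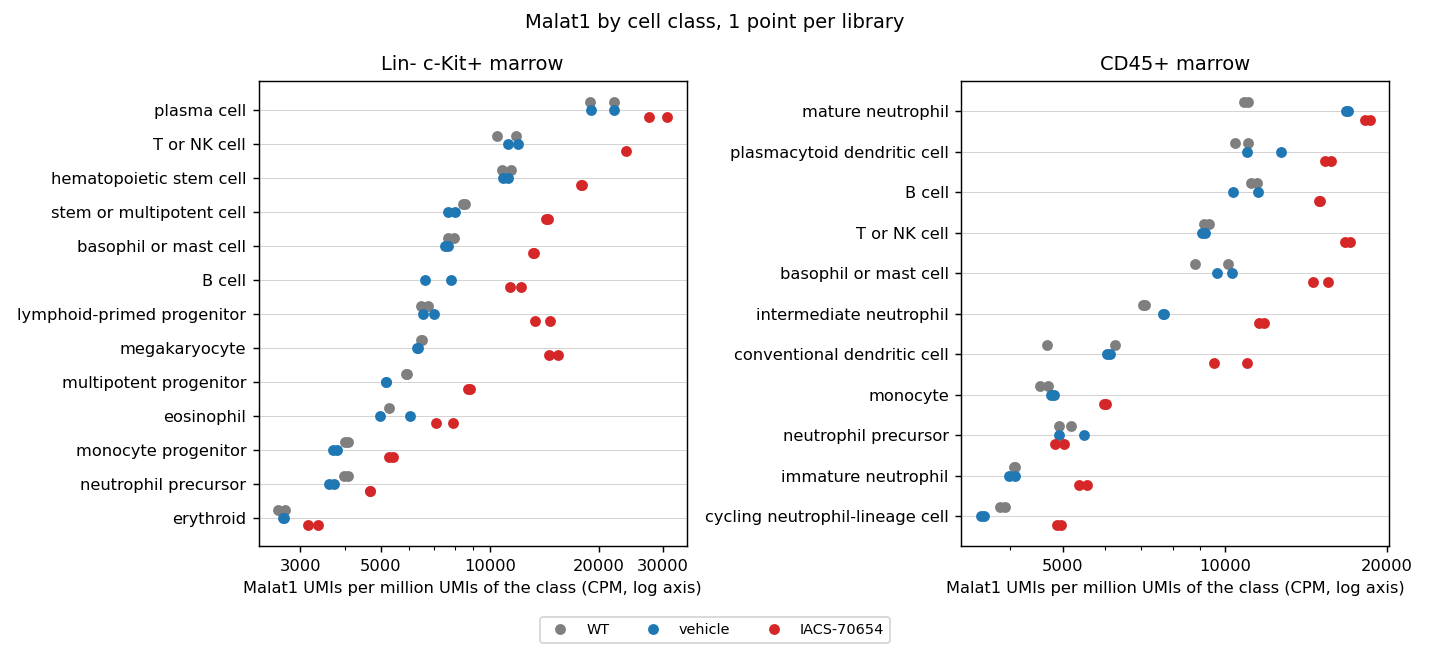
Malat1 in the cell classes of Lin- c-Kit+ BM (left) and CD45+ BM (right), with 1 point per library and classes ordered by level. The x axis is Malat1 CPM of the class on a log axis, grey is WT, blue is vehicle and red is IACS-70654; in the left panel each class has its IACS-70654 points to the right of its vehicle points, and in the right panel neutrophil precursors are the class where they overlap.

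Among the classes with smaller changes were monocyte progenitors, neutrophil precursors and erythroid cells. Monocyte progenitors, with Irf8 and Csf1r, had 5285 and 5422 CPM with IACS-70654 and 3703 and 3789 CPM with vehicle, a change of 0.49. Neutrophil precursors, with Elane and Mpo, had 4674 and 4660 CPM with IACS-70654 and 3723 and 3595 CPM with vehicle. Erythroid cells, with Klf1 and Gata1, had the lowest level of Malat1 among the classes, 3162 and 3349 CPM with IACS-70654 and 2685 and 2707 CPM with vehicle. The other log2 changes were 0.72 in basophil or mast cells, 0.72 in B cells, 1.02 in T or NK cells (1 IACS-70654 library) and 0.41 in eosinophils.

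UMIs per cell were lower with IACS-70654 than with vehicle in the stem and progenitor classes where the Malat1 difference was large. The median was 3119 and 3259 UMIs in IACS-70654 hematopoietic stem cells against 3945 and 3865 with vehicle, 6650 and 6602 against 10133 and 9175 in MPPs, and 4622 and 4342 against 8212 and 8354 in megakaryocyte cells. The number of Malat1 UMIs per cell, which is not divided by the cell's total, was higher. It averaged 60.6 with IACS-70654, 46.6 with vehicle and 47.7 in WT in hematopoietic stem cells, 63.7, 52.8 and 50.2 in MPPs, and 79.5, 55.5 and 46.1 in megakaryocyte cells. Eosinophils were the exception, with 26.5 Malat1 UMIs per cell under IACS-70654 and 28.1 under vehicle.

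When each cell was thinned at random to 3000 UMIs, shallower cells were left out, so that 168 of 300 and 107 of 171 hematopoietic stem cells remained with IACS-70654, 195 of 242 and 94 of 118 with vehicle, and 113 of 134 and 98 of 116 in WT. These hematopoietic stem cells kept 56.1 and 56.5 Malat1 UMIs per cell with IACS-70654, 33.1 and 34.1 with vehicle and 33.9 and 32.5 in WT. Thinned MPPs had 26.4 and 25.6, 15.8 and 15.5, and 17.3 and 17.8 in the same order. When cells were instead restricted to the 25th to 75th percentile of UMIs per cell, computed over the class in all 6 libraries, the log2 change was 0.64 in hematopoietic stem cells, 0.78 in MPPs and 1.27 in megakaryocyte cells. The stem or multipotent class moved from 0.81 to 0.64 under this restriction, and erythroid cells from 0.27 to 0.13. The log2 change was positive in each of the 9 classes that could be restricted this way, and UMIs per cell were not made equal inside the range.

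Neat1 took a different course in the same HSPC libraries. In MPPs it was at 74.7 and 57.7 CPM with IACS-70654, 101 and 97.9 CPM with vehicle and 101 and 97.1 CPM in WT, a log2 change of -0.56 between IACS-70654 and vehicle. Monocyte progenitors had 97.0 and 98.1 CPM with IACS-70654, 124 and 128 CPM with vehicle and 139 and 133 CPM in WT, a change of -0.40. Megakaryocyte cells went the other way, with 81.3 and 85.2 CPM with IACS-70654, 50.4 and 53.7 CPM with vehicle and 71.6 and 59.1 CPM in WT. Of 13 classes, 3 had higher Neat1 with IACS-70654 and 5 had lower Neat1 with no overlap, beside 31.6% and 23.2% of all class-by-gene tests, and the other 5 overlapped. Neat1 counts were small in several classes (5 and 6 UMIs in all cells of the IACS-70654 B cells), so that counting error is wide there.

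**Figure D2:**
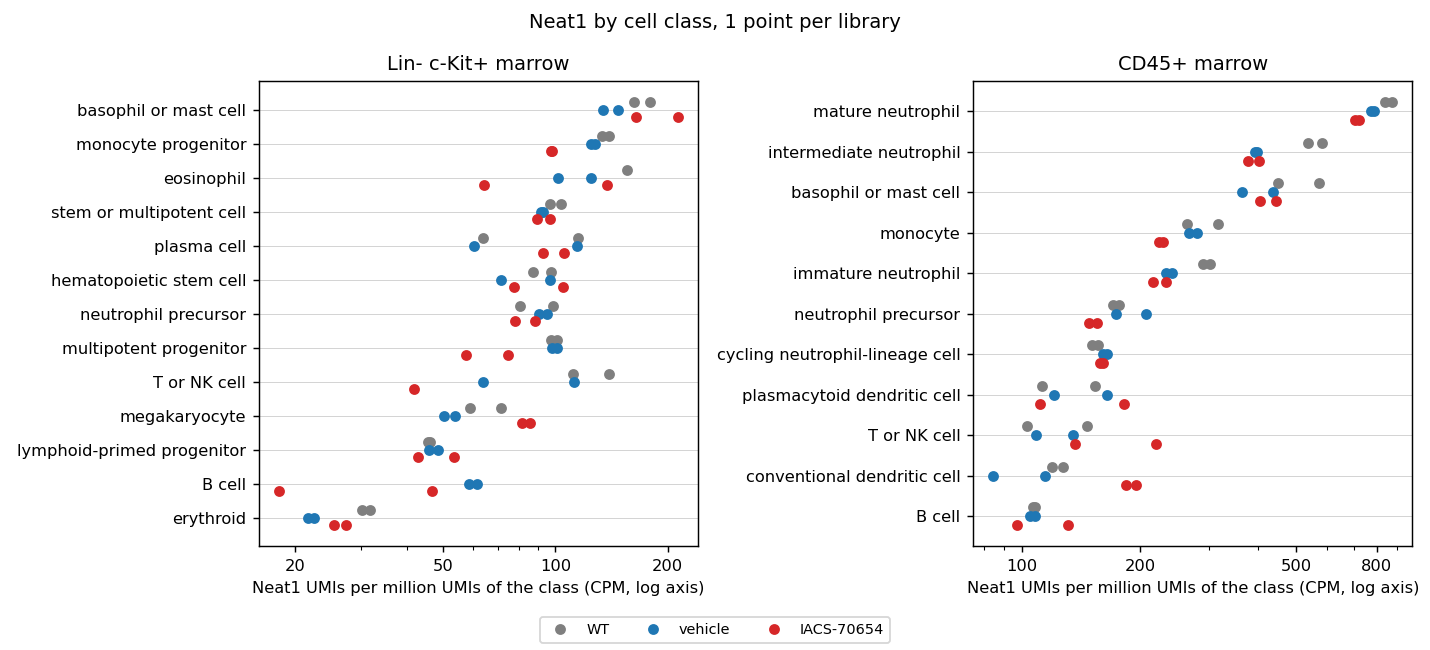
Neat1 in the cell classes of Lin- c-Kit+ BM (left) and CD45+ BM (right), with 1 point per library and classes ordered by level. The x axis is Neat1 CPM of the class on a log axis, grey is WT, blue is vehicle and red is IACS-70654; in the right panel mature neutrophils are at the top, with 704 to 879 CPM, and IACS-70654 points lie left of vehicle points in mature neutrophils, monocytes and neutrophil precursors.

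Tumor-bearing mice given vehicle were compared with WT mice in the same sort to ask whether the tumor moved these RNAs in progenitors. It shares its vehicle libraries with the contrast that chose Malat1, so the Malat1 values are given as a description, with no test. Vehicle libraries lay below those of WT with no overlap in 5 of 12 classes, as did 18.8% of all class-by-gene tests. The log2 changes in these 5 were -0.24 in MPPs, -0.16 in neutrophil precursors, -0.14 in monocyte progenitors, -0.14 in stem or multipotent cells and -0.07 in megakaryocyte cells. In MPPs the 2 vehicle libraries were below WT and the 2 IACS-70654 libraries above WT.

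Neat1 fell in erythroid cells between WT and vehicle, from 30.2 and 31.8 CPM to 21.7 and 22.5 CPM, a log2 change of -0.51 (SE 0.11, adjusted p = 0.00036), where 0.709% of all class-by-gene tests passed both limits of the call. That call was lost without vehicle replicate 1 (-0.47, adjusted p = 0.23) and, on its size alone, without WT replicate 2 (-0.48), with library totals (-0.498) and at the lower clustering resolution (-0.48). It was also lost with DESeq2 (-0.50, adjusted p = 0.17), in thinned cells (-0.55, adjusted p = 0.40) and in the 25th to 75th percentile of UMIs (-0.60, adjusted p = 0.012). The other 11 classes had no Neat1 change at an adjusted p under 0.01, the nearest being monocyte progenitors at -0.15 (adjusted p = 0.041).

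The choice of genes rested on Lin- c-Kit+ values. The drug contrast was tested in CD45+ BM cells, with earlier results of these data known. Malat1 rose with IACS-70654 in lymphoid cells, dendritic cells, basophil or mast cells, monocytes and most stages of the neutrophil lineage. It was higher than with vehicle at an adjusted p under 0.01 in 9 of 11 classes, against 7.09% of all class-by-gene tests that were higher at that limit. It was lower in 1 class, against 9.77% of tests. The median log2 change of Malat1 over the 11 classes was 0.35, beside medians of all genes between -0.01 and 0.03. By CPM, the IACS-70654 libraries lay above both vehicle libraries in 10 of 11 classes, as did 42.1% of all class-by-gene tests.

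In T or NK cells Malat1 was at 16703 and 17100 CPM with IACS-70654, 9190 and 9060 CPM with vehicle and 9362 and 9162 CPM in WT, a log2 change of 0.81 between IACS-70654 and vehicle (SE 0.14, adjusted p = 0.0055). Conventional dendritic cells had 11010 and 9536 CPM with IACS-70654, 6127 and 6055 CPM with vehicle and 6246 and 4677 CPM in WT, a change of 0.75 (SE 0.14, adjusted p = 0.000708). Basophil or mast cells had 14612 and 15566 CPM, 10321 and 9676 CPM, and 10143 and 8792 CPM in the same order, a change of 0.53 (SE 0.12, adjusted p = 0.0048). These 3 classes passed both limits of the call, against 10.2% of all class-by-gene tests in the sort and 0.645%, 4.83% and 1.67% of the genes of these classes. They were also small, with 20 to 122 cells per library.

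Depth moved with the treatment in T or NK cells, whose median was 3966 and 4423 UMIs per cell with IACS-70654 and 5697 and 5926 with vehicle. Their mitochondrial share of UMIs was 3.38% and 3.02% with IACS-70654 and 2.65% and 2.82% with vehicle, and its part was not tested. In cells thinned to 1000 UMIs, the number used in the CD45+ sort, the Malat1 change was 0.54 in T or NK cells (adjusted p = 0.057) and 0.44 in basophil or mast cells (adjusted p = 0.20), neither of which passed, and 0.68 in conventional dendritic cells (adjusted p = 9.6e-05). Malat1 UMIs per cell averaged 81.7 with IACS-70654 and 72.1 with vehicle in T or NK cells, 119 and 94.5 in basophil or mast cells, and 95.8 and 64.8 in conventional dendritic cells. Restriction to the 25th to 75th percentile of UMIs left too few cells in each of the 3.

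Each of these 3 Malat1 calls depended on single libraries. In T or NK cells the adjusted p was 0.037 without IACS-70654 replicate 1 (change 0.82) and 0.049 without replicate 2 (0.78). In conventional dendritic cells it was 0.047 without vehicle replicate 1 (0.74), 0.030 without vehicle replicate 2 (0.75) and 0.033 without IACS-70654 replicate 1 (0.67). In basophil or mast cells it was 0.17 without vehicle replicate 2 (0.45), 0.025 without vehicle replicate 1 (0.60) and 0.015 or 0.017 without a WT library (0.51 in both), and without IACS-70654 replicate 2 the change was 0.47.

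Monocytes, the largest class outside the neutrophil lineage with IACS-70654, had Malat1 at 5961 and 6021 CPM with IACS-70654, 4829 and 4758 CPM with vehicle and 4548 and 4704 CPM in WT, a change of 0.33 (SE 0.025, adjusted p = 3.87e-11). The same order held in each of the 3 larger monocyte clusters, at 7270 and 7216 against 5635 and 5481 CPM in cluster 9, 6386 and 6490 against 5079 and 5318 CPM in cluster 15, and 3809 and 3696 against 2740 and 2673 CPM in cluster 17. Plasmacytoid dendritic cells had 15758 and 15349 CPM with IACS-70654 and 11014 and 12743 CPM with vehicle, a change of 0.37 (SE 0.064, adjusted p = 0.0071) that did not hold without vehicle replicate 1 (0.27, adjusted p = 0.053). B cells had 15039 and 14965 CPM with IACS-70654 and 11553 and 10348 CPM with vehicle, a change of 0.49 (SE 0.093, adjusted p = 0.00027; 0.40 and adjusted p = 0.015 without vehicle replicate 2). Cluster 19 held 65.2% and 75% of the B cells with IACS-70654 but 1.28% and 3.95% of those with vehicle, so that the B-cell values compare mostly different clusters.

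In the neutrophil lineage Malat1 was fitted stage by stage, and differences between stages were not tested. Intermediate neutrophils, placed between the immature and mature marker lists, had 11820 and 11576 CPM with IACS-70654, 7691 and 7708 CPM with vehicle and 7041 and 7116 CPM in WT, a change of 0.35 (SE 0.026). Cycling neutrophil-lineage cells rose by 0.24 (SE 0.042) and immature neutrophils, with Ltf, Camp and Ngp, by 0.17 (SE 0.023). With library totals alone in place of TMM, the composition-adjusting scaling used for the tests, these 3 changes were 0.60, 0.47 and 0.44. Neutrophil precursors had 4834 and 5020 CPM with IACS-70654 and 4916 and 5482 CPM with vehicle, which overlap, and their change of -0.18 (SE 0.053, adjusted p = 0.016) did not pass. Malat1 UMIs per cell averaged 84.6 with IACS-70654 and 73.7 with vehicle in precursors. They averaged 68.6 and 42.0 in intermediate, 68.0 and 45.8 in cycling, and 47.8 and 30.5 in immature cells. Median total UMIs per cell were also higher with IACS-70654 in each of these classes. The mitochondrial share of UMIs moved with these groups: 1.36% and 1.39% in immature neutrophils with IACS-70654 against 0.855% and 0.867% with vehicle, and 3.29% and 3.28% against 4.54% and 4.67% in precursors. It was also higher with IACS-70654 in intermediate (0.747% and 0.765% against 0.574% and 0.576%), cycling (1.93% and 1.99% against 1.69% and 1.67%) and mature neutrophils (0.631% and 0.648% against 0.502% and 0.493%). Its part in the Malat1 values was not tested.

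Intermediate and immature neutrophils of the 2 groups fell mostly into different clusters. Cluster 2 held 88.9% and 88.3% of the intermediate neutrophils with IACS-70654, and cluster 0 held 96.1% and 96.6% of those with vehicle. Malat1 was at 12420 and 10345 against 7670 and 7688 CPM within cluster 0, and at 11493 and 11257 against 8329 and 8301 CPM within cluster 2, with 29 to 39 cells per library in the smaller group of each. Cluster 6 held 94.6% and 95.1% of the immature neutrophils with IACS-70654 and 2.66% and 3.07% of those with vehicle. Malat1 was at 5393 and 5519 against 3462 and 4262 CPM within cluster 6 and at 7130 and 8713 against 4958 and 4991 CPM within cluster 8, so that the IACS-70654 libraries were the higher ones inside each of these 4 clusters.

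Mature neutrophils, which carry Cxcr2, G0s2 and Retnlg, gave a direction that depended on the scaling. Their CPM was 18244 and 18589 with IACS-70654, 16800 and 16930 with vehicle and 11068 and 10873 in WT. Malat1 UMIs per cell averaged 60.0, 48.9 and 28.3 in the same order, and median total UMIs per cell were also higher with IACS-70654 than with vehicle. Scaled by the library total alone, Malat1 was higher with IACS-70654 by 0.13 (adjusted p = 1.4e-05), whereas after TMM scaling it was lower by 0.13 (-0.13, SE 0.022, adjusted p = 1.5e-05). Library totals alone moved the median of all genes by 0.26 in mature, 0.28 in intermediate, 0.29 in immature and 0.24 in cycling neutrophils, and the values above are relative to that shift. Mature neutrophils also fell into different clusters by group. Cluster 3 held 94.4% and 96.2% of those with IACS-70654, cluster 1 held 74.5% and 77% of those with vehicle, and cluster 5 held 80.6% and 81.9% of those of WT mice. Within cluster 3, Malat1 was at 18356 and 18618 CPM with IACS-70654 and 22801 and 22083 CPM in the 41 and 41 vehicle cells there, whose median of 1852 and 1780 UMIs was below the 2931 and 2948 UMIs of the IACS-70654 cells, and within cluster 1 at 14473 and 15481 against 15796 and 16234 CPM. Thus inside either cluster the vehicle libraries were the higher ones.

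**Figure D3:**
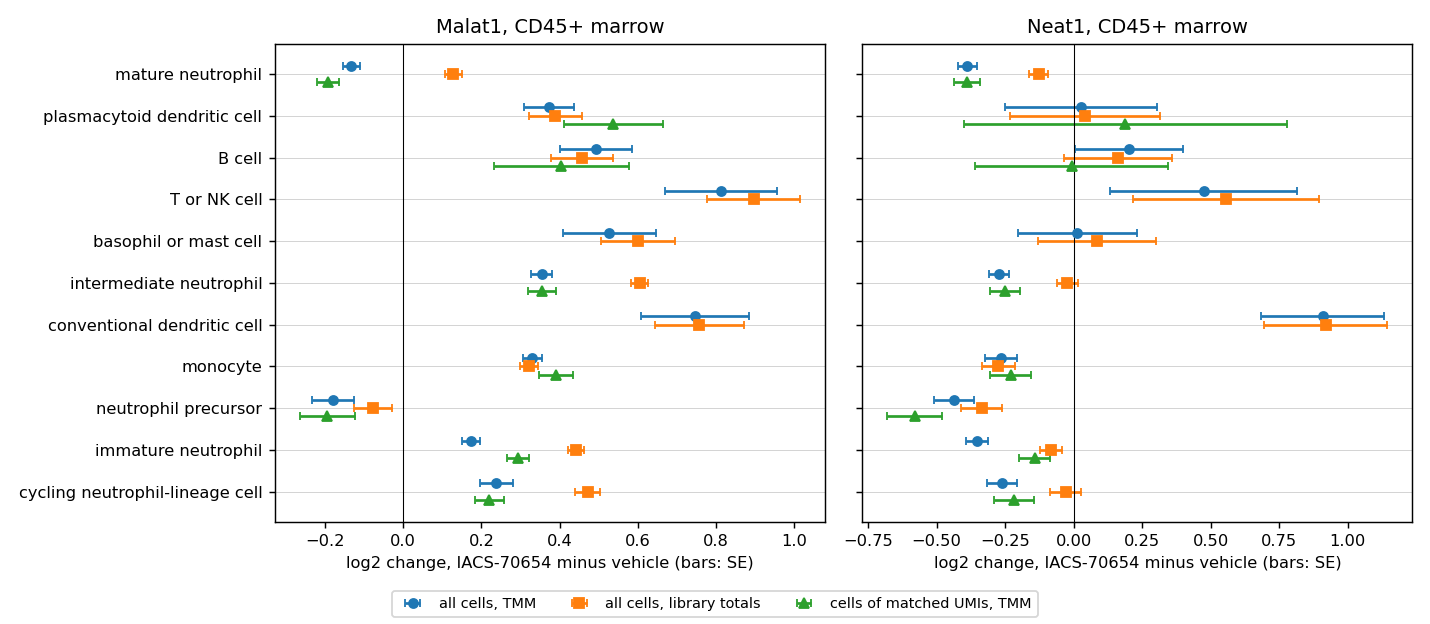
Change of Malat1 (left) and Neat1 (right) in CD45+ BM classes, IACS-70654 minus vehicle on the log2 scale, with bars for 1 SE, from 2 libraries per group. Symbols stand for TMM scaling, library totals alone, and cells of matched UMIs; mature neutrophil Malat1 is at -0.13 with TMM and 0.13 with library totals, and Neat1 is left of 0 with TMM in each class of the neutrophil lineage.

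After TMM scaling, Neat1 was lower with IACS-70654 in monocytes and in classes of the neutrophil lineage in the same CD45+ libraries. At an adjusted p under 0.01 it was lower in 6 of 11 classes and higher in 1, against 9.77% and 7.09% of all class-by-gene tests. Neat1 UMIs per cell averaged 3.09 with IACS-70654 and 3.40 with vehicle in monocytes, and 2.60 and 2.70 in neutrophil precursors. They were higher with IACS-70654 in mature (2.33 and 2.26), intermediate (2.28 and 2.15), immature (1.97 and 1.79) and cycling cells (2.21 and 2.10). Mature neutrophils had 704 and 723 CPM with IACS-70654, 789 and 773 CPM with vehicle and 879 and 839 CPM in WT, a change of -0.39 (SE 0.034, adjusted p = 5.2e-11). Monocytes had 228 and 223 CPM, 267 and 279 CPM, and 316 and 263 CPM in the same order, a change of -0.27 (SE 0.058, adjusted p = 0.0013). Neutrophil precursors had 155 and 148 CPM with IACS-70654 and 174 and 207 CPM with vehicle, a change of -0.44 (SE 0.074, adjusted p = 4.4e-05). In these 3 classes the libraries of the groups did not overlap, and 20.2% of all class-by-gene tests were lower with no overlap. With library totals alone the changes were -0.13 in mature neutrophils (adjusted p = 0.0024), -0.27 in monocytes and -0.34 in precursors. Within the clusters of mature neutrophils the libraries overlapped, with Neat1 at 703 and 720 CPM with IACS-70654 against 708 and 767 CPM with vehicle in cluster 3, and 764 and 670 against 710 and 722 CPM in cluster 1.

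The other 3 Neat1 decreases came with overlapping CPM and with the shift of the scaling. They were -0.35 in immature (SE 0.041), -0.27 in intermediate (SE 0.037) and -0.26 in cycling neutrophil-lineage cells (SE 0.055), and with library totals alone they were -0.08, -0.02 and -0.03. Inside the clusters given above, Neat1 of intermediate neutrophils was at 514 and 284 CPM with IACS-70654 against 394 and 393 CPM with vehicle in cluster 0 and at 398 and 374 against 518 and 390 CPM in cluster 2. That of immature neutrophils was at 231 and 214 against 225 and 238 CPM in cluster 6 and at 282 and 347 against 258 and 267 CPM in cluster 8. Thus inside none of these 4 clusters did Neat1 of the IACS-70654 libraries lie below that of vehicle without overlap. The monocyte decrease did not pass the limit when either vehicle or either IACS-70654 library was left out (-0.29 to -0.24, adjusted p = 0.012 to 0.040). Neat1 in conventional dendritic cells was the single increase, from 84.4 and 114 CPM with vehicle to 195 and 184 CPM with IACS-70654, a change of 0.91 (SE 0.23, adjusted p = 0.0092). It rested on 26 and 40 UMIs with vehicle, and the adjusted p was 0.18, 0.023, 0.061 and 0.046 (changes 0.71, 1.17, 0.89 and 0.95) without vehicle replicate 1 or 2 or IACS-70654 replicate 1 or 2.

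Between vehicle and WT, the CD45+ changes at an adjusted p under 0.01 were all in classes of the neutrophil lineage, while several other classes had few cells. Malat1 rose by 0.60 in mature neutrophils (SE 0.023, adjusted p = 3.3e-19), the single class that passed both limits of the call, against 3.34% of all class-by-gene tests. At an adjusted p under 0.01 and any size it was higher in 3 of 11 classes and lower in 0, against 3.78% and 2.94% of tests. It rose by 0.34 in intermediate (SE 0.027) and by 0.24 in immature neutrophils (SE 0.024), and with library totals alone these became 0.12 and -0.02. Malat1 UMIs per cell averaged 48.9 with vehicle and 28.3 in WT in mature, 42.0 and 25.9 in intermediate, and 30.5 and 22.3 in immature neutrophils. The mitochondrial share of UMIs was higher with vehicle than in WT too, at 0.502% and 0.493% against 0.348% and 0.352% in mature, 0.574% and 0.576% against 0.403% and 0.429% in intermediate, and 0.855% and 0.867% against 0.701% and 0.742% in immature neutrophils, and its part in the Malat1 values was not tested. Within the clusters of mature neutrophils the vehicle libraries were above WT, at 15796 and 16234 against 12258 and 13320 CPM in cluster 1, 26812 and 27190 against 20724 and 19650 CPM in cluster 12, and 13333 and 11886 against 10306 and 10058 CPM in cluster 5. The other 8 classes had Malat1 changes between -0.04 and 0.16 that did not pass (adjusted p = 0.42 to 0.99).

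As a share of UMIs, Neat1 went the other way in intermediate and mature neutrophils. It fell by 0.28 in intermediate neutrophils (SE 0.044, adjusted p = 2.6e-07), from 581 and 537 CPM in WT to 397 and 393 CPM with vehicle. In mature neutrophils it fell by 0.16 (SE 0.035, adjusted p = 0.00058), which was not kept without WT replicate 1 (-0.12, adjusted p = 0.029) or vehicle replicate 2 (-0.14, adjusted p = 0.020). It rose by 0.23 in cycling neutrophil-lineage cells (SE 0.058, adjusted p = 0.0036), but leaving out any 1 WT or vehicle library gave an adjusted p of 0.019 to 0.034 at changes of 0.22 to 0.25. With library totals alone the Neat1 changes were -0.50 in intermediate, -0.14 in mature (adjusted p = 0.0031) and 0.08 in cycling cells (adjusted p = 0.32), and immature neutrophils went from -0.06 to -0.32. Median UMIs per cell of intermediate neutrophils were 3455 and 3540 in WT and 5244 and 5184 with vehicle. Their Neat1 UMIs per cell averaged 2.05 in WT and 2.15 with vehicle. Those of mature neutrophils were 2.21 and 2.26, of immature neutrophils 1.62 and 1.79, and of cycling cells 1.71 and 2.10.

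The rule also asked for the dependence on UMIs per cell. Cells of a class in each library were split at the median of UMIs per cell, and the deeper cells were compared with the shallower cells with the library as a block. In the BM sorts, Malat1 took a smaller share of UMIs in deeper cells in many classes. At an adjusted p under 0.01 it was lower in deeper cells in 5 of 11 CD45+ classes and 7 of 13 Lin- c-Kit+ classes and higher in 0. Of all class-by-gene tests, 9.54% were lower and 11.1% higher in the CD45+ sort, and 5.32% lower and 5.52% higher in the Lin- c-Kit+ sort. The single positive change at an unadjusted p under 0.05 (edgeR) was 0.13 in plasmacytoid dendritic cells (unadjusted p = 0.015, adjusted p = 0.11).

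The differences were -0.83 on the log2 scale in CD45+ B cells (SE 0.080), -0.76 in T or NK cells (SE 0.11), -0.57 in neutrophil precursors (SE 0.079) and -0.43 in monocytes (SE 0.046), and in each the deeper cells were lower in 6 of 6 libraries. In Lin- c-Kit+ cells they were -1.01 in B cells (SE 0.14), -0.49 in lymphoid-primed progenitors (SE 0.053) and -0.40 in stem or multipotent cells (SE 0.042). Hematopoietic stem cells differed by -0.18 (SE 0.038, lower in 4 of 6 libraries), and MPPs by -0.02 (SE 0.042, adjusted p = 0.80).

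Cells were also divided into 5 bins of equal size by UMIs. The ratio of Malat1 CPM in the deepest to that in the shallowest bin had a median over libraries of 0.435 in neutrophil precursors, 0.605 in monocytes and 0.607 in mature neutrophils of the CD45+ sort. These ratios are of CPM without TMM scaling, and mature neutrophils were not among the 5 CD45+ classes lower in the test above. In the Lin- c-Kit+ sort the median ratio was 0.591 in stem or multipotent cells, 0.842 in hematopoietic stem cells and 0.958 in MPPs. The mitochondrial share of UMIs fell with depth in some of the same classes, with ratios of 0.534 in neutrophil precursors and 0.632 in stem or multipotent cells, but was 1.00 in monocytes and 1.01 in mature neutrophils. Its part in the Malat1 gradient was not tested. In the tumors, where depth was not tested, the median ratio was 0.415 in tumor cells (0.329 to 0.480 over 4 libraries), 0.593 in T or NK cells and 0.777 in macrophages. It was 0.840 in monocytes and 0.974 in plasmacytoid dendritic cells (2 libraries). Mature neutrophils of the tumor went the other way, at 1.24 (1.08 to 1.42), as did keratin-expressing clusters with a granulocyte marker, at 1.28 (0.622 to 1.49).

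**Figure D4:**
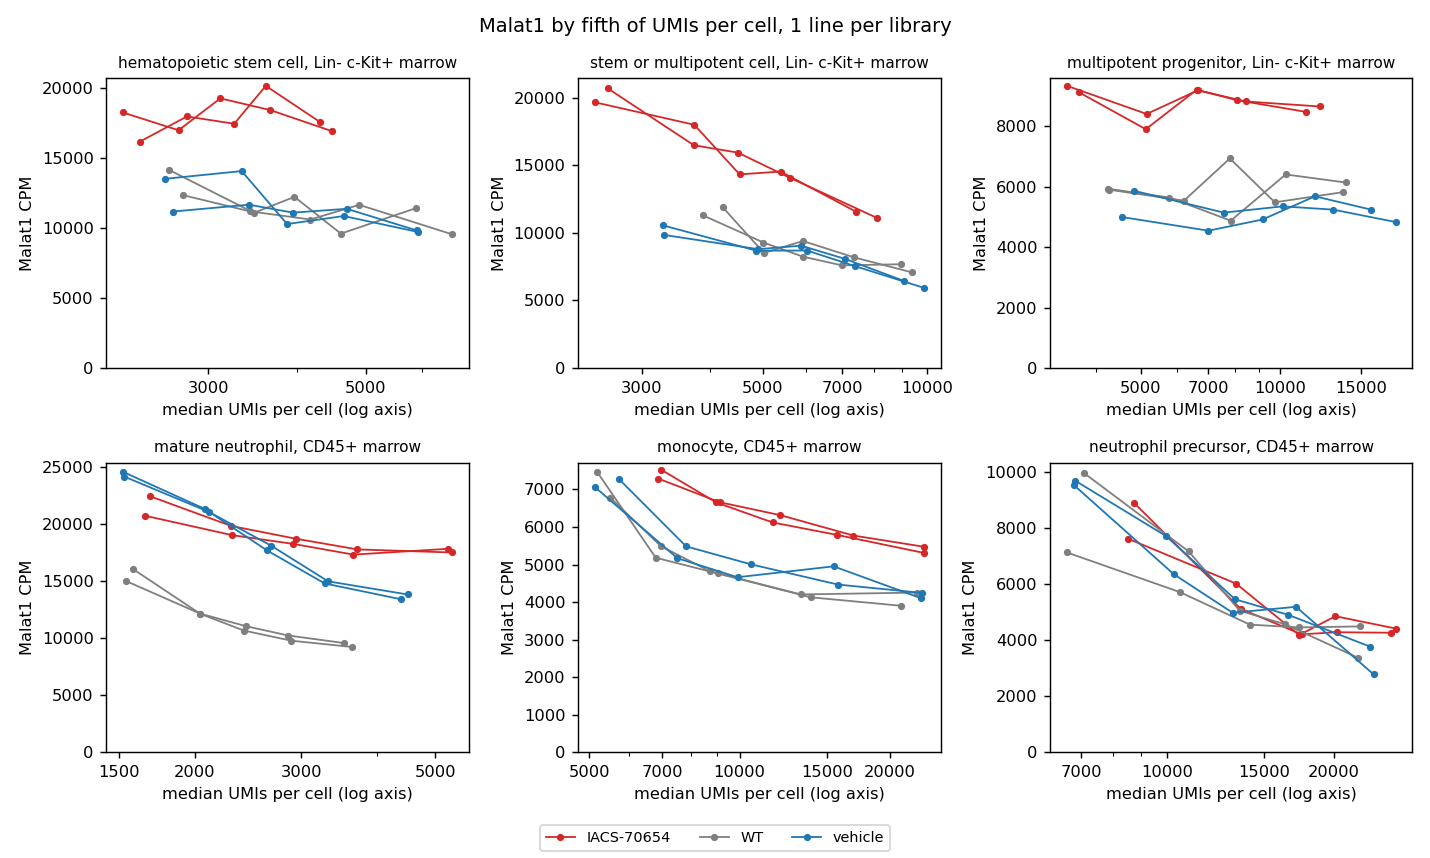
Malat1 CPM in 5 equal bins of the cells of a class, ordered by UMIs per cell, with 1 line per library; the x axis is the median UMIs per cell of the bin on a log axis. Red is IACS-70654, grey is WT and blue is vehicle. In the Lin- c-Kit+ classes of the upper row the red lines lie above the others across the depths they share. Mature neutrophils, monocytes and neutrophil precursors of the CD45+ sort slope down, with a median ratio of deepest to shallowest bin of 0.607, 0.605 and 0.435. Mature neutrophils were not among the classes lower in the depth test, which used TMM scaling.

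Neat1 depended on depth in partly other classes. Neutrophil precursors and immature neutrophils were lower in deeper cells for both RNAs, with Malat1 at -0.31 (SE 0.032) in immature neutrophils. Neat1 was lower in deeper cells in basophil or mast cells (-0.71, SE 0.18, adjusted p = 0.0028), neutrophil precursors (-0.53, SE 0.073), cycling (-0.40, SE 0.054) and immature neutrophils (-0.38, SE 0.049) of the CD45+ sort. The basophil or mast cell value did not pass without WT replicate 2 (-0.64, adjusted p = 0.022), vehicle replicate 1 (-0.64, adjusted p = 0.016) or vehicle replicate 2 (-0.58, adjusted p = 0.018), nor between the outer of 3 equal bins (-0.59, adjusted p = 0.024). Neat1 was higher in the deeper cells of MPPs (0.32, SE 0.088, adjusted p = 0.0060) and monocyte progenitors (0.24, SE 0.051, adjusted p = 0.00059). The MPP value did not pass without WT replicate 1 (0.30, adjusted p = 0.019), vehicle replicate 2 (0.26, adjusted p = 0.034) or IACS-70654 replicate 1 (0.28, adjusted p = 0.067), nor between the outer of 3 equal bins (0.31, adjusted p = 0.035). In B cells of the CD45+ sort the 2 RNAs pointed in opposite directions, Malat1 at -0.83 and Neat1 at 0.42 (SE 0.14, adjusted p = 0.019), though the Neat1 value did not pass the limit.

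Classes were ordered by the mean of log2(CPM + 1) over libraries. Among CD45+ classes, the order of Malat1 ran from mature neutrophils (median 16865 CPM over 6 libraries) through plasmacytoid dendritic cells, B cells, T or NK cells, basophil or mast cells, intermediate neutrophils, conventional dendritic cells, monocytes, neutrophil precursors and immature neutrophils down to cycling neutrophil-lineage cells (3865 CPM). The top of this order was not stable: plasmacytoid dendritic cells led without mitochondrial and ribosomal protein genes, B cells led in thinned cells, and in the WT libraries mature neutrophils (11068 and 10873 CPM) lay below B cells (11478 and 11187 CPM). By median, basophil or mast cells (10232 CPM) stood above T or NK cells (9276 CPM). In Lin- c-Kit+ cells it ran from plasma cells through T or NK cells, hematopoietic stem cells, stem or multipotent cells, basophil or mast cells, B cells, lymphoid-primed progenitors, megakaryocyte cells, MPPs, eosinophils, monocyte progenitors and neutrophil precursors to erythroid cells. That order rested on 5 libraries in T or NK cells and eosinophils and on 4 in B cells, which had too few cells in WT. Over the 4 libraries that held both, B cells were below lymphoid-primed progenitors (mean difference -0.08 on the log2 scale). By median, B cells (9583 CPM) stood above stem or multipotent cells (8488 CPM), and hematopoietic stem cells passed T or NK cells without mitochondrial and ribosomal protein genes. With IACS-70654 alone, megakaryocyte cells (mean 15026 CPM) stood above stem or multipotent cells (14404 CPM), lymphoid-primed progenitors (13976 CPM) and basophil or mast cells (13186 CPM). For Neat1, mature neutrophils, intermediate neutrophils and basophil or mast cells led the CD45+ sort, with B cells lowest, and basophil or mast cells and monocyte progenitors led the Lin- c-Kit+ sort, with erythroid cells lowest (B cells when thinned). Neighbours in an order were compared over libraries with an exact two-sided paired permutation test, for which 6 libraries cannot go below p = 0.031. No neighbours differed after adjustment within an order, but with this floor an adjusted p under 0.01 could not be reached. Neighbours were also picked by ranking the same values, so the test cannot decide the order. The smallest p was reached by 4 Malat1 pairs in the CD45+ sort (adjusted p = 0.078) and 4 in the Lin- c-Kit+ sort (adjusted p = 0.094), the latter including hematopoietic stem cells over stem or multipotent cells (mean difference 0.40 on the log2 scale) and megakaryocyte cells over MPPs (0.40). The Lin- c-Kit+ order includes the libraries that chose Malat1. Megakaryocyte cells and MPPs averaged 15026 and 8756 CPM with IACS-70654, 6323 and 5165 CPM with vehicle, and 6474 and 5905 CPM in WT.

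The genes whose pattern over class-by-library sums was most like that of Malat1 in the CD45+ sort were Ddx5 (Pearson r = 0.94 over 49 sums of 10 classes), which encodes an RNA helicase, Ubr1, Gm37240, Tspan13 and Ddx6. In the Lin- c-Kit+ sort they were Zbtb20 (r = 0.90 over 57 sums of 12 classes), Ptk2b, Zfand6, H2-D1 and AY036118. For Neat1 they were Sat1, Irak4, Tmem164, Cers6 and Sbno2 (r = 0.94 to 0.92) in the CD45+ sort, and in the Lin- c-Kit+ sort they included Man2b1, Itm2b, Alox5ap and Cebpb (r = 0.83 to 0.79). Malat1 and Neat1 were not among each other's nearest genes, with r of 0.34 (rank 1021 of 3007 genes) and 0.28 (rank 1086 of 3167 genes) in the lists of Malat1. These correlations describe sums that share libraries and depth. Taken as deviations from the class means they were lower: r for the genes named was 0.21 to 0.74 for Malat1 in the CD45+ sort and 0.58 to 0.80 in the Lin- c-Kit+ sort, and for Neat1 0.00066 to 0.64 and -0.014 to 0.31.

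Gene lists around the 2 RNAs were compared with the 10.2% of class-by-gene tests called over all genes in CD45+ cells between IACS-70654 and vehicle. Of 22 paraspeckle proteins, 18 to 21 were tested in a class, and over 11 classes 6 calls were higher and 2 lower, in 4 classes, which is 8 of 226 tests (3.54%). The higher ones were in neutrophils and included Hnrnpr, which encodes an RNA-binding protein, at 1.03 in mature, 1.14 in intermediate and 0.76 in immature neutrophils, and Taf15 at 0.56 in intermediate neutrophils. Nudt21 was at 0.65 in mature neutrophils. The lower ones were Smarca4 (-1.76) and Hnrnph1 (-0.61) in B cells, where the list's median was -0.44 against 0.00 for all genes and 10.1% of genes were called. The core paraspeckle genes Nono, Sfpq and Pspc1 had no call in this contrast, and Pspc1 fell by 0.68 from WT to vehicle in intermediate neutrophils, the single call of the list in 226 tests there (0.442%, beside 3.34% for all genes).

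Of 22 nuclear speckle proteins, 2 calls were higher and 3 lower, in 4 of 11 classes (2.07% of 242 tests, beside 10.2% for all genes), among them the splicing factor Srsf3 in conventional dendritic cells (-0.77) and B cells (-0.67). For the processing of 3′ ends there were 4 calls in 62 tests (6.45%). Pop5, a subunit of RNase P, rose in immature (0.75), intermediate (0.77) and precursor neutrophils (0.57), and Pop4 fell in immature neutrophils (-0.55). Crebbp and Ep300 had 0 calls in 22 tests over the 11 CD45+ classes. The 10 genes annotated next to the pair on chromosome 19, 5 on each side, gave 1 higher and 3 lower calls in 61 tests (6.56%), with Slc25a45 lower in immature (-0.86) and intermediate neutrophils (-0.52), Ehbp1l1 lower in intermediate (-0.57) and Znrd2 higher in immature neutrophils (0.69). Between IACS-70654 and vehicle in Lin- c-Kit+ cells, Crebbp and Ep300 had 1 higher call in 26 tests (3.85%, beside 4.56% for all genes).

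Other long noncoding RNAs gave 12 higher and 2 lower calls in 198 tests over the 11 CD45+ classes (7.07%, beside 10.2% for all genes), from a list of 27 of which 11 to 23 were tested. Xist, the RNA of the inactive X chromosome, rose in mature (0.66) and intermediate neutrophils (0.54), where Malat1 had changes of -0.13 and 0.35. Kcnq1ot1, an imprinted antisense RNA, rose in immature neutrophils (1.34), and Firre did so too (1.94). In B cells, Lncpint (3.19) and Pvt1 (2.59) rose, with the change of clusters noted above. In Lin- c-Kit+ cells, between vehicle and WT, the list had 2 higher calls and 1 lower in 248 tests (1.21%, beside 0.709% for all genes). The lower call was Mir142hg in megakaryocyte cells (-0.60). The imprinted RNA Meg3 rose by 2.62 in hematopoietic stem cells and by 2.67 in stem or multipotent cells, where Malat1 changed by -0.05 and -0.14.

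In the 2208L tumors each condition had 1 library, so ratios carry 95% intervals for counting error only and no test. Malat1 in tumor cells was at 10581 CPM with vehicle, 21076 with IACS-70654, 10650 with anti–PD-1 and 18693 with the combination. On the log2 scale, tumor cells were higher than with vehicle by 0.99 (0.98 to 1.01) with IACS-70654 and 0.82 (0.80 to 0.84) with the combination, and by 0.01 (-0.01 to 0.03) with anti–PD-1. Macrophages had 6478, 11199, 6432 and 9914 CPM in the order vehicle, IACS-70654, anti–PD-1 and combination, and monocytes 6181, 9807, 6642 and 9279 CPM. In these 3 classes both libraries with IACS-70654 lay above both without it.

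The other classes were less uniform. Mature neutrophils of the tumor had 29678 CPM with vehicle, 27172 with IACS-70654, 29310 with anti–PD-1 and 25375 with the combination, a log2 ratio of -0.13 (-0.16 to -0.09) for IACS-70654. T or NK cells had 14260, 15062, 14264 and 14401 CPM in the same order, ratios of 0.08 (0.00 to 0.15), 0.00 (-0.07 to 0.07) and 0.01 (-0.05 to 0.08). Fibroblasts, with 34 to 46 cells per library, had 14118, 21597, 10158 and 18103 CPM, but cluster 24 held 73.7% and 72.1% of those with IACS-70654 and the combination, against 30.4% with vehicle and 35.3% with anti–PD-1. Both libraries with IACS-70654 were thus the higher ones also in fibroblasts and, narrowly, in T or NK cells, and the lower ones in mature neutrophils. Epithelial genes moved with the fibroblast class, where the combination library had 285 CPM of Epcam and 1124 CPM of Krt8, against 21.7 to 83.0 CPM and 18.6 to 125 CPM in the other 3 libraries, and their part in its Malat1 was not tested. With cells of the 25th to 75th percentile of UMIs, the tumor cell ratio for IACS-70654 was 0.67 and the macrophage ratio was 0.67.

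Different clusters also made up the tumor cells. Cluster 7, led by Naaladl2, Zfp521 and Cpm, had 16848 CPM of Malat1 with vehicle, 42362 with IACS-70654, 16335 with anti–PD-1 and 41926 with the combination, and cluster 6, led by Foxq1 and Cited4, had 11269, 15792, 13118 and 13840 CPM. Cluster 20 held 23.8% and 22.7% of tumor cells with vehicle and anti–PD-1 and 0.325% and 1.02% with IACS-70654 and the combination, and was low in Malat1 (4197 and 3042 CPM). In macrophages, the libraries with IACS-70654 were the higher ones within cluster 0 (15249 and 14054 against 9177 and 9323 CPM) and within the interferon-led cluster 4 (10723 and 9067 against 6521 and 6334 CPM). A pair of keratin-expressing clusters with a granulocyte marker, numbers 10 and 12, gave 3832 CPM with vehicle and 2358 with IACS-70654. That is a comparison of different cells: cluster 10 had 732 CPM with vehicle and 1919 with IACS-70654, while cluster 12, at 5091 CPM with vehicle, held 127 vehicle cells and 7 with IACS-70654. This keratin class had 1531 to 1609 CPM of Epcam and 5.05 to 11.4 CPM of Ptprc, beside 1459 to 1692 and 9.58 to 12.1 CPM in tumor cells. Its 182 cells with vehicle and 110 with IACS-70654 are not in the tumor cell values above, which rest on 189 and 615 cells.

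**Figure D5:**
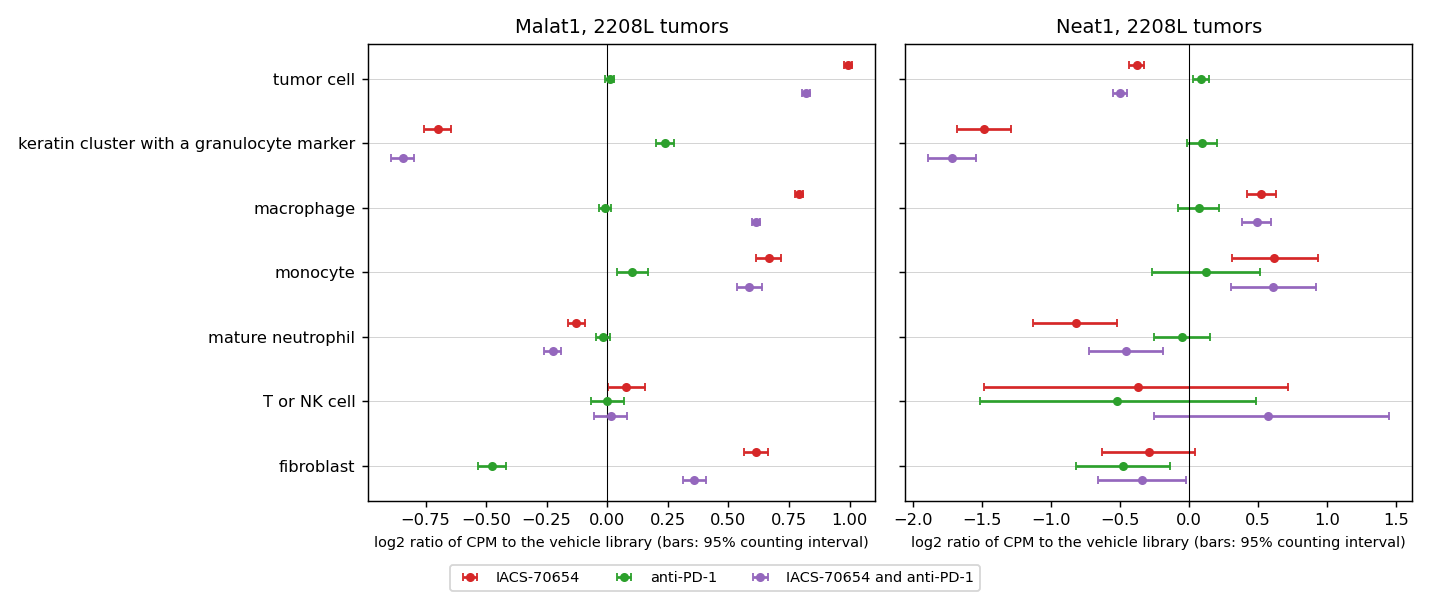
Malat1 (left) and Neat1 (right) in the classes of 2208L tumors, as the log2 ratio of CPM to the vehicle library, with 1 library per condition and bars for the 95% interval of counting error. Red is IACS-70654, green anti–PD-1 and purple both; Malat1 is right of 0 in tumor cells, macrophages and monocytes for red and purple, and Neat1 is left of 0 in tumor cells and mature neutrophils and right of 0 in macrophages and monocytes for the same libraries.

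Neat1 in tumor cells was at 1352 CPM with vehicle, 1040 with IACS-70654, 1436 with anti–PD-1 and 954 with the combination, log2 ratios of -0.38 (-0.43 to -0.33), 0.09 (0.03 to 0.14) and -0.50 (-0.55 to -0.45). In macrophages it was higher with IACS-70654, at 173, 249, 182 and 244 CPM in the same order, and in monocytes at 172, 264, 187 and 262 CPM. The ratios for IACS-70654 were 0.53 (0.42 to 0.63) in macrophages and 0.62 (0.31 to 0.94) in monocytes, against -0.27 in BM monocytes between groups of the CD45+ sort. Mature neutrophils of the tumor had 583 CPM with vehicle and 331 with IACS-70654, a ratio of -0.82 (-1.13 to -0.52). Within tumor cell cluster 7, Neat1 differed little between conditions (2499, 2416, 2389 and 2598 CPM), whereas in cluster 6 it was at 1350 CPM with vehicle, 749 with IACS-70654, 1133 with anti–PD-1 and 642 with the combination.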

How the data were processed

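The authors made a count of UMIs per gene and cell with CellRanger multi from 3′ libraries marked with CellPlex tags, and the raw counts were deposited without normalization. Per the file headers the version was 7.1.0 for tumors and 7.2.0 for BM, and per the labels the build was mm10. Whether reads in introns were counted is not given in the sources used here. Cells were kept above 200 genes and below 6000 genes if mitochondrial UMIs made up no more than 10%. The libraries of each sort were clustered together (2000 variable genes, 30 principal components, 20 neighbours, leidenalg 0.10.2 at resolution 1, under Python 3.11.15) without integration. Clusters were named from fixed marker lists once their scores had been seen, and clusters that no list fitted were left unnamed. Doublet calls of scanpy 1.11.5 marked under 0.5% of cells in most libraries and so were not relied on, and its scores served for an alternative.

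UMIs were summed per class and library with at least 20 cells. These sums were tested with edgeR 4.0.16 (R 4.3.3; filterByExpr, TMM, quasi-likelihood test over the 6 libraries of a sort) on the whole gene table with Benjamini-Hochberg adjustment, after tests on simulated data, and DESeq2 1.42.0 was an alternative. A test of Malat1 between vehicle and WT in Lin- c-Kit+ cells had been planned but is not given, because its vehicle libraries entered the choice of Malat1. SEs came from the change and its F statistic. Tumor ratios have exact intervals at 95% confidence. The text names Malat1 and Neat1 throughout, from each list at most the 2 called genes with the largest change in each direction within a class, and the 5 genes most like each member, of which 1 is not reported here. Members and lists were chosen with earlier results of these data known.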

Additional observations from a re-analysis of the deposited data

Results flagged for a closer look

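Some effects of 1 contrast pointed in opposite directions in 2 classes, with the libraries of each apart, and the difference between the classes was not tested in any of these pairs. In CD45+ BM, Neat1 between IACS-70654 and vehicle was -0.44 on the log2 scale in neutrophil precursors and 0.91 in conventional dendritic cells. Between vehicle and WT it was -0.31 in basophil or mast cells, which did not pass the test (adjusted p = 0.81), and 0.23 in cycling neutrophil-lineage cells.

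In the tumors, with 1 library per condition, the Malat1 ratio of IACS-70654 to vehicle was -0.70 in the keratin-expressing clusters with a granulocyte marker and 0.99 in tumor cells. For Neat1 it was -1.48 in the same keratin clusters and 0.62 in monocytes. The keratin class had Epcam at the level of tumor cells, as given above. Cluster 12 held 127 of the 182 cells of the keratin class with vehicle and 7 of the 110 with IACS-70654. Within cluster 10 Malat1 was higher with IACS-70654 than with vehicle, at 1919 against 732 CPM, and Neat1 was at 148 against 87.2 CPM.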

How the results depend on the processing

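Of the recomputed values, 2092 kept their direction and their side of the call (an adjusted p under 0.01 with a change of at least 0.5) or, where untested, stayed within the spread, 38 lost the call, 20 gained it, 139 moved in size and 114 changed sign, among them 6 that passed a test at an adjusted p under 0.01 in one setting or, in tumors, had an interval without 0, given next; settings gave no value where a class had too few cells or no cluster of its own. With library totals alone, Malat1 in mature neutrophils was 0.13 for IACS-70654, and from WT to vehicle Malat1 was -0.12 in cycling and -0.018 in immature neutrophils. Thinning gave 0.0016 for Neat1 in cycling cells with IACS-70654, at most 5% mitochondrial UMIs gave -0.0081 for Malat1 in tumor T or NK cells with IACS-70654, and the UMI window gave -0.054 for Malat1 in the keratin clusters with anti–PD-1. The cause of these was not tested. Malat1 with IACS-70654 in MPPs (0.76) was 0.79 with no filter, 0.78 in the UMI window, 0.74 thinned and 0.80 at resolution 0.6. From WT to vehicle Malat1 in MPPs (-0.24) was -0.19 with library totals, -0.21 in the window, -0.22 thinned and -0.26 at 5% mitochondrial UMIs and at resolution 0.6. Malat1 with IACS-70654 in stem or multipotent cells (0.81) was 0.88 with library totals, 0.64 in the window, 0.64 at resolution 0.6 and 0.77 to 0.85 without 1 library. The tumor macrophage ratio (0.79) was 0.81 with TMM and 0.67 in the window, and the tumor cell ratio (0.99) was 0.95 with TMM, 0.67 in the window, 0.95 without mitochondrial and ribosomal protein genes and 0.96 at 5% mitochondrial UMIs. The deepest against the shallowest of 3 equal bins of cells gave -0.57 in CD45+ monocytes and -0.52 in stem or multipotent cells for Malat1.

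In counts of CD45+ classes for IACS-70654, Malat1 was higher in 5 classes in the UMI window (8 could be fitted) and lower in 0 with library totals and in 1 to 2 without 1 library. Neat1 was higher in 0 classes in the window, thinned, at resolution 0.6, with DESeq2, with library totals, without mitochondrial and ribosomal protein genes or the highest doublet scores, and in 0 to 1 without 1 library, and it was lower in 3, 1 and 3 in the window, thinned and with library totals. From WT to vehicle, Malat1 was lower in 1 CD45+ class with library totals, and Neat1 was higher in 0 with DESeq2, thinned and with library totals (0 to 1 without 1 library) and lower in 1 in the window, thinned and with no filter (1 to 2 without 1 library). In Lin- c-Kit+ cells Neat1 was lower in 0 classes in the window, thinned and with DESeq2 (0 to 1 without 1 library). For depth, Malat1 was lower in 8 CD45+ classes with library totals, Neat1 was higher in 1 CD45+ and 1 Lin- c-Kit+ class by 3 bins, and without 1 library Neat1 was higher in 1 to 2 and lower in 0 to 1 Lin- c-Kit+ classes. Thinning left 0 of 2 neighbouring pairs of Lin- c-Kit+ classes at the smallest p for Neat1.

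The replicate numbers pair libraries of different groups, but same-numbered libraries did not deviate together, with a median correlation of -0.0095 to 0.026 over classes in the CD45+ sort and -0.0053 to 0.019 in the Lin- c-Kit+ sort. With a replicate block, Malat1 in mature neutrophils was -0.13 and Malat1 with IACS-70654 was higher in 7 CD45+ classes, against 9 without the block, since basophil or mast cells (0.53, adjusted p = 0.028) and plasmacytoid dendritic cells (0.37, adjusted p = 0.032) no longer passed. The first of these was the single value to lose a call. How small a change could be detected in the rarer classes at this depth was not tested.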

Other observations

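Cells that the mitochondrial limit removed (4071 of 77636 barcodes) had more Malat1 than the kept cells in 16 of 16 libraries. The ratio of their CPM to that of kept cells ran from 1.26 to 4.48, with a median of 1.78. Neat1 was higher in such cells in 9 of 16 libraries, with ratios of 0.632 to 2.41 and a median of 1.06. Removed cells are in no comparison above.

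Unnamed clusters of the Lin- c-Kit+ sort, whose markers belonged to more than 1 type, had the same order of Malat1 as the named classes. Cluster 16 had 28719 and 29069 CPM with IACS-70654 and 15854 and 15850 CPM with vehicle, and cluster 17 had 17992 and 17446 CPM against 8006 and 7404 CPM.

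Over all kept cells, Malat1 was at 7990 and 8203 CPM in the IACS-70654 libraries of the Lin- c-Kit+ sort and at 4831 and 4996 CPM in those with vehicle. With each library set to the same mix of classes these were 7930 and 8132 against 4916 and 5101 CPM. Both pairs are descriptions, since this contrast chose Malat1. In tumors the same step left Malat1 at 13634 CPM with IACS-70654, 12264 with the combination, 8484 with vehicle and 8453 with anti–PD-1.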
